A study of Mus musculus with 20 samples.

Results

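The genes described here are 41 imprinted genes of the mouse, taken from the deposited table by matching its Entrez gene identifiers to a list of symbols. All 41 were found among the 27179 genes of that table. Gene expression had been measured by RNA sequencing in striatum and hippocampus of C57BL/6 mice, to compare animals that lack Helios with wild type animals. Helios is a zinc finger transcription factor of the Ikaros family and is encoded by Ikzf2. The 4 groups, with 5 libraries each, were striatum of Helios -/- mice, striatum of wild type mice, hippocampus of Helios -/- mice and hippocampus of wild type mice. The knockout was a full one, carried by the whole animal, all groups shared the C57BL/6 background, and the labels name no treatment. Age and sex, the part of Ikzf2 that was removed, and whether the libraries of a group came from separate animals are not given in the sources used here, and p-values cover the spread among libraries only, which may be technical. Genotypes below are those of the labels, with knockout standing for Helios -/-.

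Imprinted genes are transcribed mainly or only from the maternal or the paternal allele. The choice of allele is set by DNA methylation that the egg or the sperm lays down at imprinting control regions, and it spreads over clusters of neighbouring genes, often by way of long non-coding RNAs. Many imprinted genes control growth of the fetus and placenta, and several are strongly expressed in neurons and are known for roles in feeding, maternal behaviour and sleep. Both alleles of these inbred mice carry the same sequence, so the values below are the sum of both alleles and say nothing about which allele was read. Of the 41 genes, 22 are known as paternally expressed, 14 as maternally expressed, and 5 have an allele that depends on tissue or transcript. They lie in 17 domains on 10 chromosomes, and 11 domains hold at least 2 of them.

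The RPKM values correspond to 16806256 to 37105127 reads per library, read counts scaled by gene length and library size. Striatal markers summed to between 340.0 and 614.1 RPKM in striatum, against 25.2 to 43.5 in hippocampus, and hippocampal markers to between 113.9 and 430.7 in striatum, against 625.6 to 963.6 in hippocampus. The hippocampal library labelled knockout replicate 10 has a tissue tag that reads striatum, against its own title, and its striatal markers summed to 34.9 RPKM. Ikzf2 was at 0.76 to 1.11 RPKM in knockout striatum, below the 2.09 to 3.66 in wild type striatum. In hippocampus it was at 0.353 to 1.43 RPKM in libraries labelled knockout and at 0.782 to 1.61 in those labelled wild type, so these groups overlapped. Each library has a code of 2 numbers, and codes 7_1 and 7_6 carry opposite genotype labels in the 2 tissues. In hippocampus, code 7_1 (wild type replicate 6) had 0.782 RPKM of Ikzf2 and code 7_6 (knockout replicate 5) had 1.43, each on the side of the other label. The hippocampal differences between genotypes named below are therefore also given without both codes and with these 2 hippocampal labels exchanged. Every code that begins with 6 was labelled wild type and every code that begins with 8 knockout, so that whatever the first number records cannot be told apart from genotype. Hippocampal knockout replicate 8 stood apart by gene length, with values shifted by 0.69 on the log2 scale for genes of 1 kb and by -0.89 for genes of 8 kb relative to the other libraries.

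The 41 genes spanned a wide range of levels. Nnat, which encodes the small membrane protein neuronatin, averaged 1433.0 RPKM over all 20 libraries, the highest of the 41. The MAGE family gene Ndn averaged 202.2 RPKM, the G protein subunit gene Gnas 139.2, and the non-coding RNAs Meg3 and Rian 138.0 and 129.6. Counting these 5, 21 genes averaged over 10 RPKM, 14 averaged 1 to 10 RPKM and 6 averaged below 1 RPKM. The lowest were Slc22a18, an organic cation transporter gene, at 0.157 RPKM, and Phlda2, a restraint on placental growth, at 0.046 RPKM. The scale of Rian rests on an exon length of 3584 bases, which was inferred from its values. By the annotation, 23 of the 41 genes overlap another gene. The library kit keeps strand, but the sources used here do not say whether the counting used strand, so reads of such overlapping pairs may have been shared.

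Striatum was compared with hippocampus within each genotype, which asks how these genes differ between the 2 brain regions. In knockout, 20 of the 35 imprinted genes tested passed, 14 higher and 6 lower in striatum (limma on log2(RPKM + 1), Benjamini-Hochberg adjusted p below 0.05). That is 57.1% of those tested, against 28.6% of all 14764 genes tested, with 40% higher and 17.1% lower, against 13.1% and 15.6% of all genes. In wild type, 18 of 37 passed, 14 higher and 4 lower. That is 48.6%, against 43.9% of all 15083 genes tested, with 37.8% higher and 10.8% lower, against 20.8% and 23.1% of all genes. Their median difference, striatum minus hippocampus, was 0.25 on the log2 scale in knockout, against a median of -0.0016 over all genes, and 0.19 in wild type, against -0.0039. The filter of 0.5 RPKM in at least 5 libraries of a comparison left out 4 of the 41 genes, Rtl1, Kcnq1ot1, Phlda2 and Slc22a18, and in knockout Ube3a and Plagl1 were left out too, because the decimal mark of 1 value of each was unsure. Without codes 7_1 and 7_6, 13 imprinted genes passed in knockout, among 2630 genes in all, and 13 of the 18 calls in wild type were kept. Without hippocampal knockout replicate 8, 22 passed in knockout, among 6283 genes in all.

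In both genotypes 15 genes passed, 12 higher and 3 lower in striatum, and none had opposite signs. How many of all genes passed in both genotypes was not counted. The 12 were Rasgrf1, Magel2, Peg10, Asb4, Meg3, Rian, Nnat, Blcap, Ppp1r9a, Snrpn, Ddc and Zrsr1, and the 3 were Igf2, Zim1 and Airn. Passing in knockout alone were 5 genes, Usp29 and Nap1l5 higher and Cdkn1c, Mest and Grb10 lower, and passing in wild type alone were 3, Mirg and Peg3 higher and Plagl1 lower. Plagl1 was not tested in knockout, and Airn was tested there only through its hippocampal libraries. With the replicate numbers shared by both tissues as a block, the knockout calls of Nnat, Blcap, Ppp1r9a, Snrpn, Ddc and Zrsr1 were lost. So were the knockout calls of Usp29, Cdkn1c, Mest and Grb10 and the wild type calls of Peg3, Plagl1 and Zrsr1. That fit left 9 imprinted genes in knockout, among 1956 genes in all, and 16 in wild type, among 4589. Among paternally expressed genes, 8 passed as higher and 3 as lower of 19 tested in knockout, against 7 and 3 of 20 in wild type. Among maternally expressed genes the counts were 4 and 2 of 11 in knockout and 5 and 1 of 12 in wild type. In knockout these are 57.9% of paternally and 54.5% of maternally expressed genes, against 28.6% of all genes. In wild type they are 50% of each, against 43.9%. Whether the difference between tissues differed between genotypes was tested directly, as an interaction, and passed for 0 of 36 genes, as given with the genotype comparisons. A lower value in a whole tissue can mean fewer cells that express the gene or less RNA in each of them, and these cannot be told apart.

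**Figure D1:**
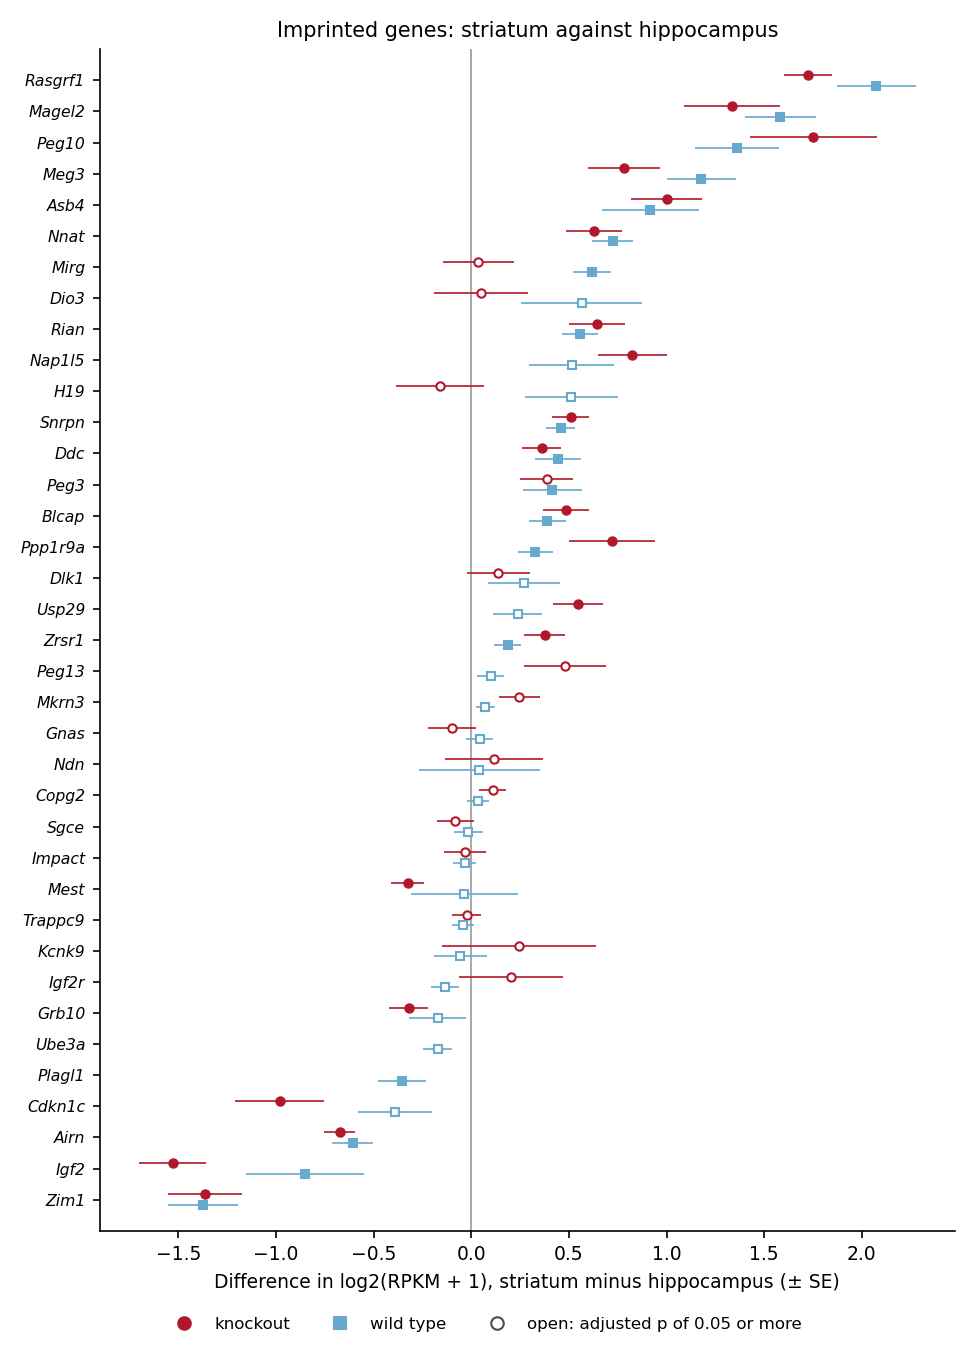
Difference in log2(RPKM + 1) between striatum and hippocampus of each tested imprinted gene, with its standard error (5 libraries per group), in knockout and in wild type. Positive values are higher in striatum, filled points passed an adjusted p of 0.05, and genes are in the order of the wild type difference. Rasgrf1, Magel2 and Peg10 lie at the striatal end, and Zim1 and Igf2 at the hippocampal end, in both genotypes.

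Rasgrf1, a guanine nucleotide exchange factor for Ras and a paternally expressed gene (chr9:89909908-90026977, GRCm38, plus strand), had the largest tissue difference in wild type. In knockout it was at 5.49, 3.16, 3.58, 4.47 and 3.48 RPKM in striatum, against 0.39, 0.367, 0.68, 0.606 and 0.503 RPKM in hippocampus. Its wild type values were 3.65, 4.84, 4.94, 9.07 and 3.27 RPKM in striatum, against 0.284, 0.575, 0.353, 0.616 and 0.189 RPKM in hippocampus. All 10 striatal libraries lay above all 10 hippocampal libraries, a lack of overlap that 14% of all genes showed in this direction in knockout and 14.9% in wild type. The highest, wild type replicate 4 of striatum, stood well above the rest of its group. The difference was 1.72 ± 0.13 on the log2 scale (SE, n = 5 per group; limma adjusted p = 2.38e-06) in knockout and 2.07 ± 0.20 (adjusted p = 1.31e-05) in wild type. Without wild type replicate 4 of striatum it was 1.88 ± 0.12 in wild type (limma adjusted p = 5.12e-07). The 250 bases before its RefSeq start are shown because it had this largest difference. CG dinucleotides, at which DNA can be methylated, are in capitals. There were 21 of them, on chr9:89909525-89909774, plus strand of GRCm38.p6. Methylation was not measured, and the window was not chosen as an imprinting control region.
Rasgrf1: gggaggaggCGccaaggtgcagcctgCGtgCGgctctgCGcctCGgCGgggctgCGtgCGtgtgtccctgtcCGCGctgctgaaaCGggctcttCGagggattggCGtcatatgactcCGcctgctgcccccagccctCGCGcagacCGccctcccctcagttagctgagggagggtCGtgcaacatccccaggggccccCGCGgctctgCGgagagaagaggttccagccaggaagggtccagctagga

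Across the genes with such a window in RefSeq, 32 of the 41, the first window held a median of 10 CG dinucleotides, against 6 over all 32851 promoter windows of the mouse. The members ranged from 0, in Rian and Slc22a18, to 40, in Grb10. No test was made of this difference.

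The Prader-Willi and Angelman region on chromosome 7 holds a row of neuronal genes. In people, loss of its paternal genes causes Prader-Willi syndrome and loss of maternal UBE3A causes Angelman syndrome. Magel2 and Ndn encode MAGE proteins that act with ubiquitin ligases, Mkrn3 encodes a ubiquitin ligase that holds back puberty, and Snrpn encodes a protein of the splicing machinery. Magel2 (chr7:62377010-62381640) and Ndn (chr7:62346569-62350262) are neighbours on the plus strand, and the 250 bases before the RefSeq start of each are shown because their tissue patterns differed. CG dinucleotides are in capitals, with 7 before Magel2 (chr7:62376729-62376978) and 5 before Ndn (chr7:62348027-62348276), both on the plus strand of GRCm38.p6. The gene spans are those of GENCODE. The span of Ndn begins upstream of its RefSeq start, so the Ndn window lies within that span.
Magel2: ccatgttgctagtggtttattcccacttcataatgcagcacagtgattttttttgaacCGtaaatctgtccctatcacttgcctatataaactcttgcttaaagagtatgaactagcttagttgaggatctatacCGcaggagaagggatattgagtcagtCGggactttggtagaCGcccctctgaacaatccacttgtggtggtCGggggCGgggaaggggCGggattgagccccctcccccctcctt
Ndn: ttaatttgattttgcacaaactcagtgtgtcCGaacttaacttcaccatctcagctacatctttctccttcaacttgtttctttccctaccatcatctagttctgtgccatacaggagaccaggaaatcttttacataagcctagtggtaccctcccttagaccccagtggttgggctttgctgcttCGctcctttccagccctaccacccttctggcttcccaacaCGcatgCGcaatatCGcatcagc

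Magel2 was at 13.3, 4.52, 7.96, 8.59 and 5.75 RPKM in knockout striatum, against 3.12, 1.98, 1.6, 3.55 and 2.1 RPKM in knockout hippocampus. Among wild type libraries the values were 7.33, 8.87, 12.3, 4.95 and 6.13 RPKM in striatum, against 1.94, 2.13, 1.49, 1.8 and 2.0 RPKM in hippocampus. Every striatal library was above every hippocampal one. The tissue difference was 1.33 ± 0.25 on the log2 scale in knockout (limma adjusted p = 0.00181) and 1.58 ± 0.18 in wild type (adjusted p = 4.31e-05). Ndn did not show this difference, with 0.12 ± 0.25 in knockout (adjusted p = 0.772) and 0.04 ± 0.31 in wild type (adjusted p = 0.926). Mkrn3, on the other side of Magel2, averaged 8.74 ± 0.719 RPKM in knockout striatum and 7.26 ± 1.12 in knockout hippocampus (SD, n = 5 each; 0.25 on the log2 scale, limma adjusted p = 0.109). Its wild type mean was 8.44 ± 0.481 in striatum and 7.98 ± 0.258 in hippocampus (0.07, limma adjusted p = 0.248).

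The spread between neighbours was tested within each library, as the difference of their log2(RPKM + 1) values. Such pairs were chosen after the values had been seen, and 39 comparisons were made, 19 in knockout and 20 in wild type. The smallest p that 5 libraries against 5 allow is 0.00794. Of the 39, 22 passed an adjusted p of 0.05 (two-sided exact permutation test), 10 in knockout and 12 in wild type. At an unadjusted exact permutation p below 0.05 there were 11 of the 19 in knockout and 13 of the 20 in wild type, or 57.9% and 65%. The same test on all pairs of neighbouring tested genes, 14277 in knockout and 14559 in wild type, placed 46.5% and 52.5% below 0.05. A difference between neighbours was thus common among all genes. Those pairs are tested genes next to each other, while the imprinted pairs are consecutive members of a domain. Imprinted pairs can have other genes between them, so the 2 kinds of pair can differ in distance. Magel2 minus Mkrn3 was -0.18 ± 0.47 in knockout striatum, against -1.27 ± 0.24 in knockout hippocampus, a change of 1.09 (SD, n = 5 each; exact permutation p = 0.00794, adjusted 0.0163). Among wild type libraries it was -0.14 ± 0.40 in striatum, against -1.65 ± 0.11 in hippocampus, a change of 1.51 (exact permutation p = 0.00794, adjusted 0.0163). Ndn minus Magel2 changed by -1.54 between wild type striatum and hippocampus (exact permutation p = 0.00794, adjusted 0.0163), and by -1.22 in knockout, where the test was not passed (exact permutation p = 0.0556, adjusted 0.0867).

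Ndn varied between libraries more than between tissues or genotypes. It was at 170.8, 257.8, 131.8, 176.0 and 287.1 RPKM in knockout striatum and at 128.7, 140.6, 384.9, 306.0 and 140.5 RPKM in wild type striatum. In hippocampus it was at 152.6, 227.8, 145.6, 142.5 and 271.1 RPKM in knockout and at 163.3, 161.8, 254.2, 241.9 and 160.0 RPKM in wild type. The same 4 codes, 6_7, 6_8, 8_4 and 8_7, were high in both tissues, at 257.8 to 384.9 RPKM in striatum and 227.8 to 271.1 in hippocampus. The other 6 codes were at 128.7 to 176.0 RPKM in striatum and 142.5 to 163.3 in hippocampus, with no value between the 2 sets in either tissue. Both sets hold libraries of both genotypes. The sources used here do not say what the codes record, and no test was made of a split seen in the values. Magel2 did not split this way. In striatum it was at 12.3, 4.95, 4.52 and 5.75 RPKM in the 4 codes, of which the last 3 lay below the 6.13 to 13.3 RPKM of the other 6.

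**Figure D2:**
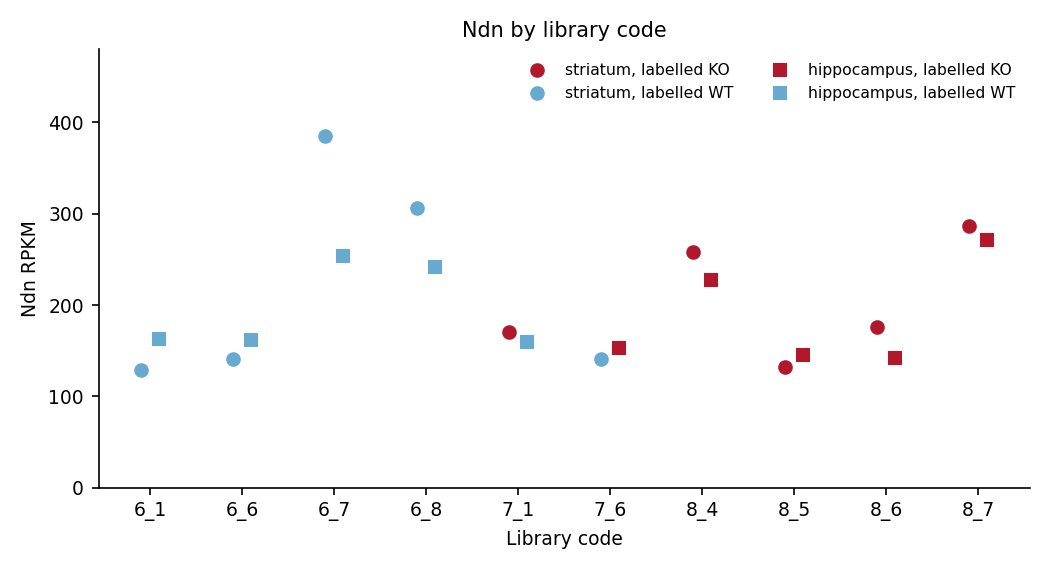
RPKM of Ndn in each library, by the library's code, with striatum as circles and hippocampus as squares and the labelled genotype in colour. Codes 6_7, 6_8, 8_4 and 8_7 lie at 227.8 RPKM or more in both tissues and the other 6 codes at 176.0 or less.

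Snrpn was at 1.39 ± 0.308 RPKM in knockout striatum and 0.672 ± 0.104 in knockout hippocampus (SD, n = 5 each; 0.51 ± 0.10 on the log2 scale, limma adjusted p = 0.00213). Wild type levels were 1.43 ± 0.201 in striatum and 0.769 ± 0.11 in hippocampus (0.46 ± 0.07, limma adjusted p = 0.000543). These levels are uncertain, since Snrpn shares its strand and exons with Snurf. Reads of shared exons may have been counted for Snrpn or left out, which could raise or lower its level. Ube3a, which encodes a ubiquitin ligase and is silenced on the paternal allele in neurons by an antisense RNA, was at 17.7 ± 0.844 RPKM in knockout striatum and between 15.1 and 19.7 in 4 of the knockout hippocampal libraries. In the other, replicate 8, it was listed at 4.16 RPKM with an unsure decimal mark, so the gene was not tested in knockout. In wild type Ube3a was at 17 ± 1.63 RPKM in striatum and 19.3 ± 1.68 in hippocampus (-0.17 ± 0.07, limma adjusted p = 0.0794).

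The Peg10 domain on chromosome 6 held neighbours with and without a tissue difference. Peg10 derives from a retrotransposon and is needed in the placenta, and Sgce encodes epsilon-sarcoglycan, whose human gene is mutated in myoclonus dystonia. Both are paternally expressed and start next to each other on opposite strands (Peg10 at chr6:4747306-4760517, plus strand, Sgce at chr6:4674350-4747207, minus strand). Peg10 was at 59.1, 20.9, 22.3, 28.9 and 25.4 RPKM in knockout striatum, against 9.19, 10.4, 3.23, 9.79 and 9.53 RPKM in knockout hippocampus. The wild type libraries held 14.9, 34.4, 39.7, 20.7 and 20.7 RPKM in striatum, against 8.13, 9.31, 8.95, 9.07 and 9.19 RPKM in hippocampus. All striatal libraries were above all hippocampal ones, and striatal values were spread much wider. The difference was 1.75 ± 0.33 on the log2 scale in knockout (limma adjusted p = 0.00194) and 1.36 ± 0.22 in wild type (adjusted p = 0.000463). Without hippocampal replicate 8 it was 1.48 ± 0.25 in knockout (adjusted p = 0.000953).

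Sgce did not pass. It averaged 10.5 ± 1.01 RPKM in knockout striatum and 11.1 ± 1.33 in knockout hippocampus (-0.08 ± 0.10 on the log2 scale, limma adjusted p = 0.573), and 10.1 ± 1.21 in wild type striatum and 10.1 ± 0.683 in wild type hippocampus (-0.01 ± 0.07, adjusted p = 0.887). Sgce minus Peg10 was -1.39 ± 0.58 in knockout striatum, against 0.44 ± 0.75 in knockout hippocampus, a change of -1.83 (SD, n = 5 each; two-sided exact permutation p = 0.00794, adjusted 0.0163). Among wild type libraries it was -1.21 ± 0.64 in striatum, against 0.17 ± 0.10 in hippocampus, a change of -1.38 (exact permutation p = 0.00794, adjusted 0.0163). The 2 maternally expressed genes of the domain were higher in striatum. Ppp1r9a, which encodes the actin-binding synaptic protein neurabin, was at 32.6 ± 3.99 RPKM in knockout striatum and 20.2 ± 6.11 in knockout hippocampus (0.72 ± 0.22, limma adjusted p = 0.0315). Wild type levels were 29.8 ± 4.34 in striatum and 23.4 ± 0.793 in hippocampus (0.33 ± 0.09, limma adjusted p = 0.0122). Without codes 7_1 and 7_6 both calls of Ppp1r9a were lost, with differences of 0.74 in knockout (limma adjusted p = 0.0737) and 0.32 in wild type (adjusted p = 0.0504) over 4 libraries per group.

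Asb4, which encodes a substrate adaptor of a ubiquitin ligase and is strongly expressed in hypothalamus, was at 4.21, 1.49, 2.35, 3.66 and 2.32 RPKM in knockout striatum, against 0.893, 0.725, 0.652, 1.17 and 0.789 RPKM in knockout hippocampus. Wild type libraries were at 1.73, 3.47, 6.86, 3.2 and 1.88 RPKM in striatum, against 1.22, 1.16, 1.39, 1.41 and 0.747 RPKM in hippocampus. Striatal libraries were all above hippocampal ones, at 1.00 ± 0.18 on the log2 scale in knockout (limma adjusted p = 0.00165) and 0.92 ± 0.25 in wild type (adjusted p = 0.0115). Hypothalamic markers summed to 3.74 to 4.59 RPKM in knockout striatum, against 2.41 to 3.47 in knockout hippocampus, and to 4.2 to 12.4 in wild type striatum, against 2.0 to 2.35 in wild type hippocampus. Of the 10 markers, 3 reached 0.5 RPKM in knockout striatum and 3 in knockout hippocampus, against 4 and 2 in wild type, with Avp at 0 in knockout hippocampus and Sim1 at 0 in wild type hippocampus. Basal forebrain markers were highest in knockout replicate 6 and wild type replicate 3 of striatum, at 100.6 and 94.2 RPKM in sum, against 40.1 to 69.7 in the other 8 striatal libraries. These 2 libraries also held the highest striatal values of Peg10, Magel2 and Asb4 in their groups. Whether other regions in the dissected tissue had a part in these differences was not tested. Without replicate 6 the knockout differences were 1.5 for Peg10, 1.15 for Magel2 and 0.88 for Asb4, and without replicate 3 the wild type differences were 1.19, 1.42 and 0.68, all with a limma adjusted p below 0.05.

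**Figure D3:**
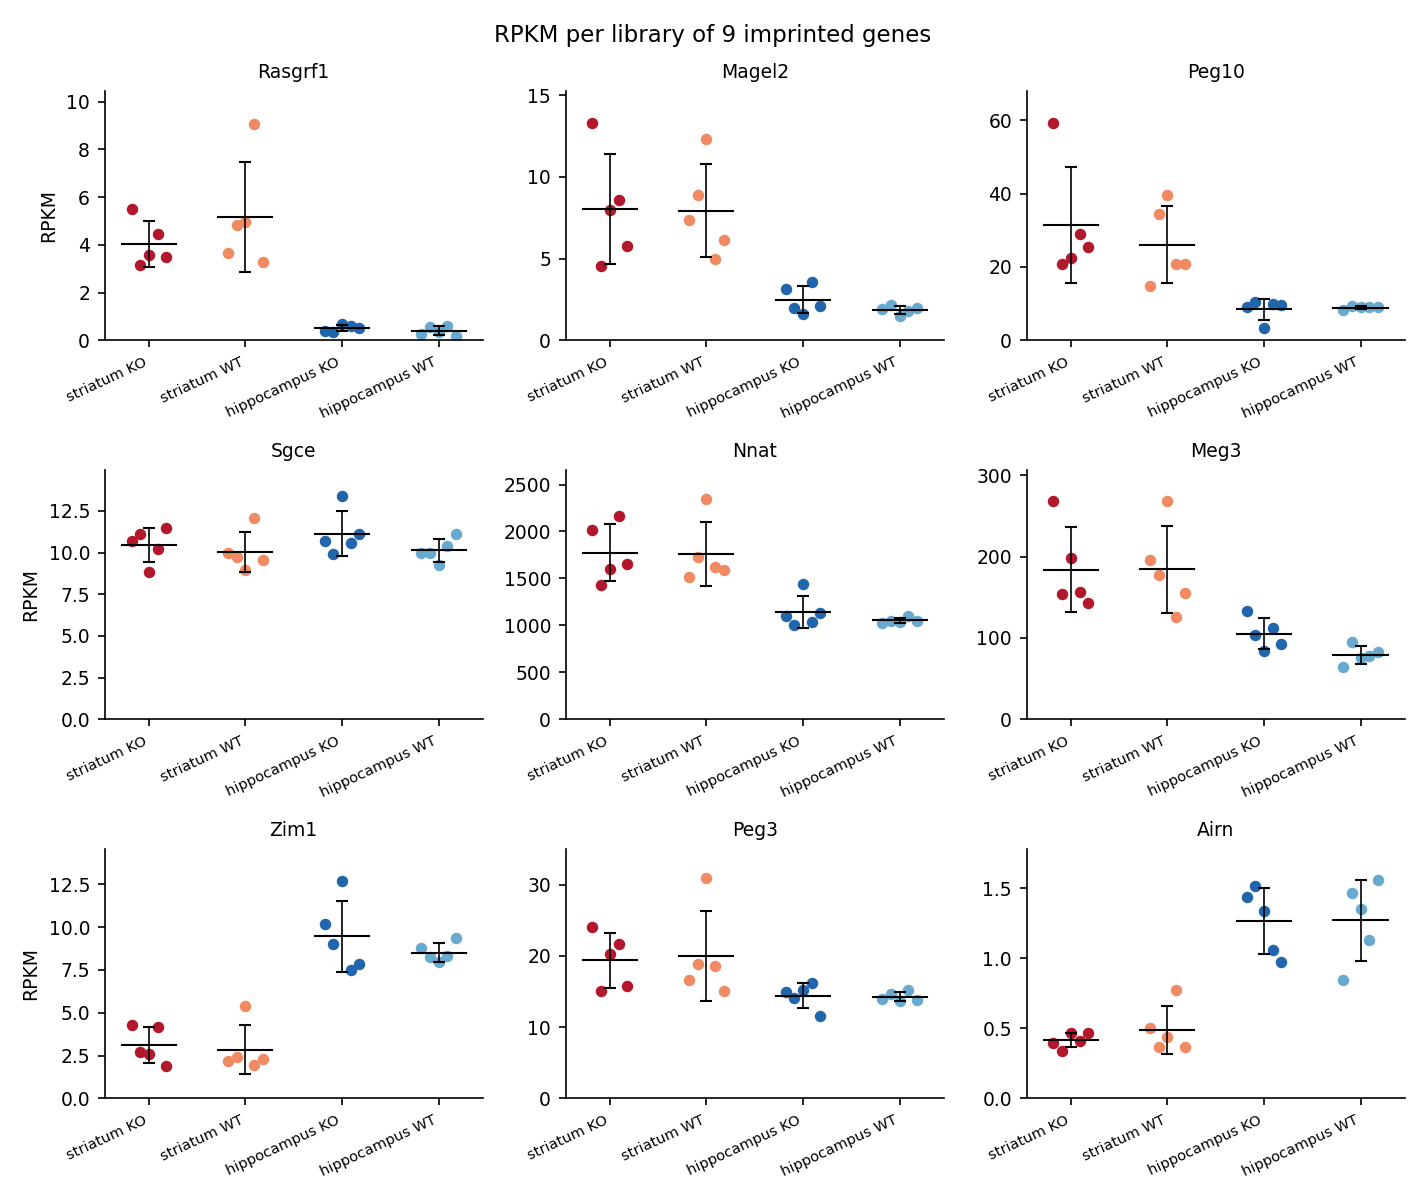
RPKM of 9 imprinted genes in every library, with the group mean (line) and SD (bar) of 5 libraries. Rasgrf1, Magel2 and Peg10 have no overlap between striatum and hippocampus, Sgce overlaps in all 4 groups, and Zim1 and Airn are lower in striatum without overlap.

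Nnat and Blcap on chromosome 2 were both higher in striatum. Nnat (chr2:157560078-157562522, plus strand), a paternally expressed gene of a membrane protein that binds calcium pumps, lies within an intron of Blcap (chr2:157556362-157571274, minus strand), which encodes a small protein first known from bladder cancer. Nnat was at 2020.8, 1431.7, 1605.6, 2167.2 and 1649.9 RPKM in knockout striatum, against 1095.7, 1009.2, 1442.3, 1037.4 and 1131.4 RPKM in knockout hippocampus. Its wild type values were 1519.8, 1725.9, 2349.0, 1621.5 and 1589.1 RPKM in striatum, against 1028.6, 1051.5, 1034.1, 1103.7 and 1046.6 RPKM in hippocampus. The wild type groups did not overlap, and in knockout hippocampal replicate 8, at 1442.3, reached above the lowest striatal library. The difference was 0.63 ± 0.15 on the log2 scale in knockout (limma adjusted p = 0.00698) and 0.72 ± 0.11 in wild type (adjusted p = 0.000242). In knockout the call was lost without codes 7_1 and 7_6 (limma adjusted p = 0.0549). Blcap was at 79.1 ± 13.8 RPKM in knockout striatum and 55.7 ± 3.74 in knockout hippocampus (0.49 ± 0.12, limma adjusted p = 0.00954), and at 76.2 ± 13.5 in wild type striatum and 57.3 ± 0.925 in wild type hippocampus (0.39 ± 0.09, adjusted p = 0.00607).

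Meg3 and Rian, abundant non-coding RNAs of the Dlk1-Dio3 domain on chromosome 12, were higher in striatum in both genotypes, and the less abundant Mirg passed in wild type alone. These maternally expressed RNAs are read in this order from the same strand and host small nucleolar RNAs and microRNAs. The windows before the starts of Meg3 (chr12:109540746-109540995, plus strand) and Nnat (chr2:157559828-157560077, plus strand) are shown, as these abundant RNAs were higher in striatum in both genotypes. CG dinucleotides are in capitals, 10 before Meg3 and 12 before Nnat.
Meg3: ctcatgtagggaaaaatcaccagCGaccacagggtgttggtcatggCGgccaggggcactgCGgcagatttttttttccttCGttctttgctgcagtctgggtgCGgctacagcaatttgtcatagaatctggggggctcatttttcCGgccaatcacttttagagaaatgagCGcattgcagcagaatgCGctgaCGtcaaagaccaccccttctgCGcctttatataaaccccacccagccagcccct
Nnat: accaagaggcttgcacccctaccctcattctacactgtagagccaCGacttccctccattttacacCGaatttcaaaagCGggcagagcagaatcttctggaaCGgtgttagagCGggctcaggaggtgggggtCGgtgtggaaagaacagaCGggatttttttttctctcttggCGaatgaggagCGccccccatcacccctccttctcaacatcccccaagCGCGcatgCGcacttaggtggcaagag

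Both strands of these windows were searched for a few motifs that were picked after the sequences had been read. The Meg3 window holds TATAAA, found in 12.4% of all 32851 windows, and TGACGTCA, found in 1.55%. The Magel2 window holds TATAAA and GGGCGG, the second found in 32.7% of windows. The windows of Nnat and Ndn hold none of these 3. The Nnat window holds the consensus of NRF1, the last motif searched, which was found in 0.782% of all windows and in none of the other windows of these genes. The Rasgrf1 window above and the Zim1 window below hold GGGCGG.

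Meg3 was at 268.8, 153.7, 198.4, 155.9 and 143.2 RPKM in knockout striatum, against 132.7, 103.0, 83.8, 112.7 and 92.1 RPKM in knockout hippocampus. Among wild type libraries the values were 195.8, 177.4, 268.2, 125.3 and 155.3 RPKM in striatum, against 64.3, 95.2, 74.8, 77.6 and 82.6 RPKM in hippocampus. The tissues did not overlap in either genotype, with a difference of 0.78 ± 0.19 on the log2 scale in knockout (limma adjusted p = 0.00829) and 1.18 ± 0.18 in wild type (adjusted p = 0.000285). Rian was at 166.5 ± 22.2 RPKM in knockout striatum and 106.9 ± 18.1 in knockout hippocampus (0.64 ± 0.14, limma adjusted p = 0.00583), and at 146.3 ± 19.7 in wild type striatum and 98.9 ± 8.58 in wild type hippocampus (0.56 ± 0.09, adjusted p = 0.000614). Mirg passed in wild type, at 7.23 ± 1.09 RPKM in striatum and 4.34 ± 0.474 in hippocampus (0.62 ± 0.10, limma adjusted p = 0.00045). In knockout it was at 6.93 ± 0.884 in striatum and 7 ± 2.71 in hippocampus (0.04 ± 0.18, limma adjusted p = 0.908), and hippocampal replicate 8 was at 11.8 RPKM there. Of these 3 genes, Meg3 and Rian kept both calls without codes 7_1 and 7_6.

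The paternally expressed genes of the same domain did not pass in either genotype. Dlk1, a ligand related to the Notch ligands that restrains adipocyte formation, was at 2.27 ± 0.631 RPKM in knockout striatum and 1.97 ± 0.618 in knockout hippocampus (0.14 ± 0.16 on the log2 scale, limma adjusted p = 0.573). In wild type it was at 2.6 ± 1.08 in striatum and 1.91 ± 0.41 in hippocampus (0.27 ± 0.19, limma adjusted p = 0.263). Wild type striatal replicate 4, where meningeal markers were high, had the highest Dlk1, at 4.08 RPKM. Dio3, the deiodinase that inactivates thyroid hormone, ranged from 0.179 to 3.94 RPKM over all libraries and overlapped between all groups (adjusted p = 0.902 in knockout and 0.16 in wild type). Rtl1, a retrotransposon-derived gene of the placenta, lay between 0.286 and 0.853 RPKM and was under the filter.

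The Peg3 domain on chromosome 7 moved in both directions. Peg3 and Usp29 are paternally expressed and start within 163 bases of each other on opposite strands (chr7:6730420-6730582, GRCm38.p6, shown on its plus strand), while Zim1, a maternally expressed zinc finger gene, lies on the far side of Peg3. Peg3 encodes a zinc finger protein known for effects on maternal behaviour, and Usp29 a ubiquitin peptidase. The stretch between the 2 starts and the 250 bases before Zim1 (chr7:6696433-6696682, minus strand) are shown because Zim1 went the other way from Peg3. CG dinucleotides are in capitals, 5 between Peg3 and Usp29 and 14 before Zim1.
Peg3 and Usp29: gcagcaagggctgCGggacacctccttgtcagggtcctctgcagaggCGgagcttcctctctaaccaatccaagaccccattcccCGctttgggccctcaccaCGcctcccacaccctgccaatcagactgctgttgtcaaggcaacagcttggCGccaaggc
Zim1: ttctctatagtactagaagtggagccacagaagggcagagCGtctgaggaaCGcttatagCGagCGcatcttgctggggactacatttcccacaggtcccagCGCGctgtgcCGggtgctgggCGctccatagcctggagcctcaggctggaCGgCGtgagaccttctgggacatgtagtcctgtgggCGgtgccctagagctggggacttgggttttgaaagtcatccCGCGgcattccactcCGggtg

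Zim1 was at 4.31, 2.69, 2.59, 4.14 and 1.86 RPKM in knockout striatum, against 10.2, 9.0, 12.7, 7.51 and 7.86 RPKM in knockout hippocampus. The wild type libraries held 2.19, 2.4, 5.37, 1.95 and 2.28 RPKM in striatum, against 8.77, 8.23, 7.94, 8.29 and 9.35 RPKM in hippocampus. All striatal libraries were below all hippocampal ones, as for 13.9% of all genes in knockout and 15.9% in wild type, with a difference of -1.36 ± 0.19 on the log2 scale in knockout (limma adjusted p = 0.000269) and -1.37 ± 0.18 in wild type (adjusted p = 0.00011). Peg3 was at 19.3 ± 3.83 RPKM in knockout striatum and 14.4 ± 1.73 in knockout hippocampus (0.39 ± 0.14, limma adjusted p = 0.0556), and at 20 ± 6.27 in wild type striatum and 14.3 ± 0.667 in wild type hippocampus (0.41 ± 0.15, adjusted p = 0.0428). Without wild type striatal replicate 3, at 30.9 RPKM, the wild type difference of Peg3 was 0.25 ± 0.07 (limma adjusted p = 0.0116). Its wild type call was lost under 10 of 19 other settings. Usp29 was at 8.67 ± 1.57 RPKM in knockout striatum and 5.59 ± 0.81 in knockout hippocampus (0.55 ± 0.13, limma adjusted p = 0.00793), and at 7.88 ± 2.05 in wild type striatum and 6.4 ± 0.399 in wild type hippocampus (0.24 ± 0.13, adjusted p = 0.149). Zim1 minus Peg3 was -2.32 ± 0.22 in knockout striatum, against -0.57 ± 0.28 in knockout hippocampus, a change of -1.75 (SD, n = 5 each; two-sided exact permutation p = 0.00794, adjusted 0.0163). In wild type the change was -1.79 (exact permutation p = 0.00794, adjusted 0.0163). Peg3 minus Usp29 changed by -0.16 in knockout and 0.18 in wild type, neither past the threshold (exact permutation adjusted p = 0.361 and 0.119).

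Igf2 and H19 on chromosome 7 share enhancers. Igf2, paternally expressed, encodes a fetal growth factor that meninges and choroid plexus also make, and H19, maternally expressed, is a non-coding RNA. Igf2 was at 19.8, 18.2, 20.0, 23.0 and 17.3 RPKM in knockout striatum, against 56.7, 47.4, 91.0, 62.0 and 44.6 RPKM in knockout hippocampus. Wild type libraries were at 18.8, 24.4, 19.1, 61.1 and 17.5 RPKM in striatum, against 32.9, 55.6, 45.2, 57.7 and 42.0 RPKM in hippocampus. The knockout groups did not overlap, and in wild type the striatal replicate 4, at 61.1, lay above every hippocampal library. The difference was -1.53 ± 0.17 on the log2 scale in knockout (limma adjusted p = 6.36e-05) and -0.85 ± 0.30 in wild type (adjusted p = 0.0403). Without striatal replicate 4 the wild type difference was -1.17 ± 0.15 (limma adjusted p = 9.06e-05). This wild type call was lost under 10 of 19 other settings, among them leaving out any 1 of 8 other libraries, with adjusted p up to 0.128.

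H19 was at 33.1, 25.4, 43.8, 40.2 and 43.7 RPKM in knockout striatum, against 37.4, 29.7, 71.8, 38.5 and 37.2 RPKM in knockout hippocampus. Its wild type values were 38.8, 43.7, 35.9, 67.7 and 26.4 RPKM in striatum, against 20.0, 38.8, 25.1, 36.8 and 24.3 RPKM in hippocampus. The tissues overlapped in both genotypes, at -0.16 ± 0.23 on the log2 scale in knockout (limma adjusted p = 0.645) and 0.51 ± 0.24 in wild type (adjusted p = 0.105). H19 relative to Igf2 did differ between the tissues. H19 minus Igf2 was 0.87 ± 0.33 in knockout striatum, against -0.50 ± 0.19 in knockout hippocampus, and 0.68 ± 0.34 in wild type striatum, against -0.68 ± 0.12 in wild type hippocampus. The change was 1.37 in both genotypes (SD, n = 5 each; two-sided exact permutation p = 0.00794, adjusted 0.0163).

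Markers of meningeal fibroblasts were lower in striatum, as Igf2 was, while H19 was not. The 13 markers summed to 9.95 to 12.4 RPKM in knockout striatum, against 119.6 to 461.0 in knockout hippocampus, and to 7.76 to 162.5 in wild type striatum, against 123.0 to 145.8 in wild type hippocampus. Of the 13, 7 reached 0.5 RPKM in knockout striatum and all 13 in the other 3 groups, and no marker was at 0 in all libraries of a group. The highest sums in striatum and in hippocampus were those of wild type striatal replicate 4 and hippocampal knockout replicate 8. These libraries had the highest Igf2 and H19 of their tissue. They also had its highest sums of endothelial and pericyte markers, at 132.4 and 176.3 RPKM, and of microglia markers, at 25.9 and 44.7. Hippocampal knockout replicate 8 is also the library whose values were shifted by gene length. Choroid plexus markers summed to 4.6 to 19.8 RPKM in knockout striatum, against 53.5 to 388.9 in knockout hippocampus, and to 2.71 to 17.7 in wild type striatum, against 38.6 to 94.3 in wild type hippocampus. The part of these cells in the levels of Igf2 and H19 was not tested.

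**Figure D4:**
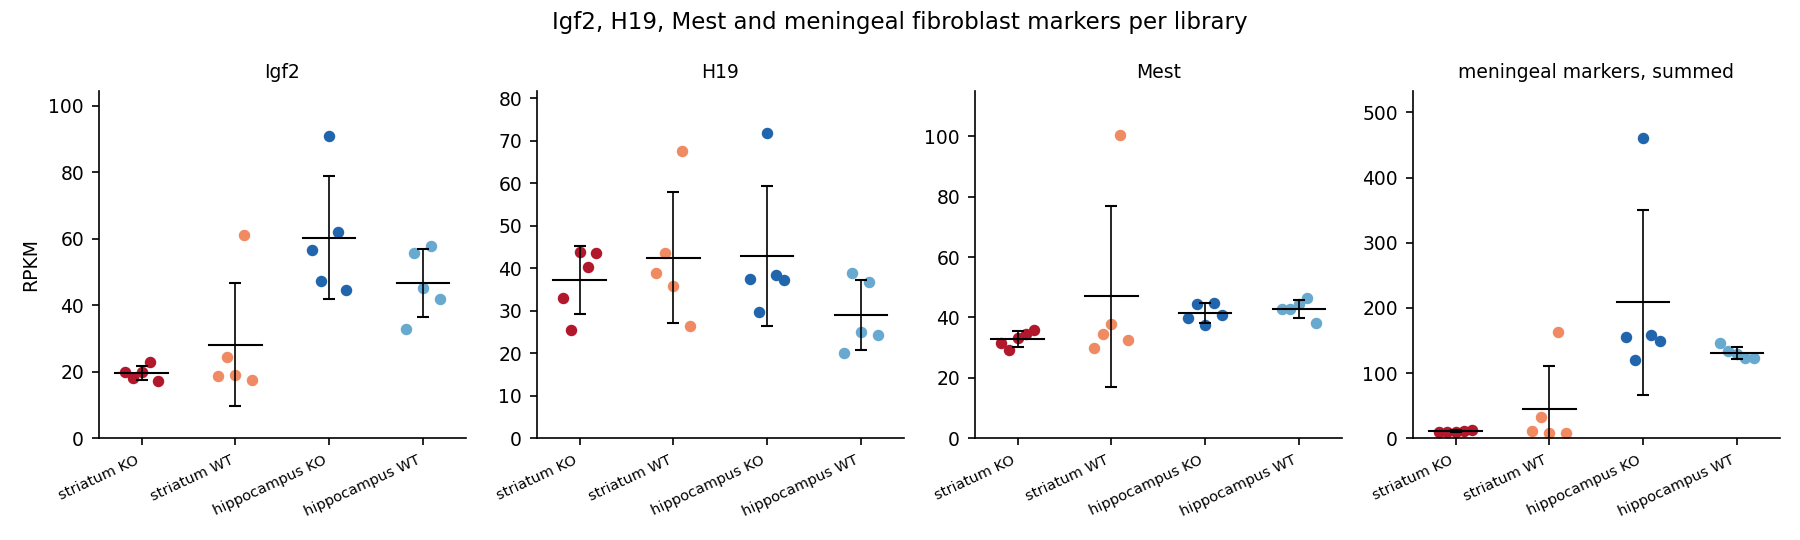
RPKM per library of Igf2, H19 and Mest and the summed RPKM of 13 meningeal fibroblast markers, with the mean (line) and SD (bar) of 5 libraries per group. Wild type striatal replicate 4 is the highest striatal library in all 4 panels, at 61.1, 67.7, 100.5 and 162.5 RPKM.

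Igf2r and Airn on chromosome 17 belong to the same growth pathway. Igf2r encodes the receptor that removes IGF2, and Airn is the antisense RNA whose transcription silences Igf2r on the paternal allele outside neurons. Airn was at 0.395, 0.341, 0.464, 0.41 and 0.463 RPKM in knockout striatum, against 1.44, 1.52, 1.34, 1.06 and 0.974 RPKM in knockout hippocampus. Among wild type libraries the values were 0.505, 0.363, 0.435, 0.775 and 0.364 RPKM in striatum, against 0.844, 1.47, 1.35, 1.13 and 1.56 RPKM in hippocampus. All striatal libraries were below all hippocampal ones, at -0.67 ± 0.08 on the log2 scale in knockout (limma adjusted p = 9.03e-05) and -0.61 ± 0.11 in wild type (adjusted p = 0.000853). In knockout every striatal library was below the 0.5 RPKM of the filter. Airn was thus tested there only because all 5 hippocampal libraries, where it was high, passed. Its knockout test could be run under 11 of 19 other settings. Igf2r was at 7.06 ± 0.736 RPKM in knockout striatum and 6.48 ± 2.51 in knockout hippocampus (limma adjusted p = 0.622), and at 7.37 ± 0.857 in wild type striatum and 8.15 ± 0.376 in wild type hippocampus (adjusted p = 0.148). Igf2r minus Airn changed by 0.88 in knockout (two-sided exact permutation p = 0.00794, adjusted 0.0163) and by 0.47 in wild type (exact permutation p = 0.0238, adjusted 0.0422). Airn overlaps Igf2r on the other strand, so reads of the pair may have been shared.

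Cdkn1c, Grb10 and Plagl1, 3 genes that restrain growth, each passed as lower in striatum in 1 genotype. Cdkn1c, the cyclin-dependent kinase inhibitor p57, was at 21.5 ± 6 RPKM in knockout striatum and 43 ± 11.8 in knockout hippocampus (-0.98 ± 0.23 on the log2 scale, limma adjusted p = 0.00745), and at 26.5 ± 7.65 in wild type striatum and 34.6 ± 7.38 in wild type hippocampus (-0.39 ± 0.19, adjusted p = 0.116). Grb10, an adaptor that dampens insulin and IGF receptors, was at 16.7 ± 1.72 RPKM in knockout striatum and 21.1 ± 2.36 in knockout hippocampus (-0.32 ± 0.10, limma adjusted p = 0.0334), a call that 10 of 19 other settings ended. In wild type it was at 20.1 ± 6.2 in striatum and 22.1 ± 0.971 in hippocampus (limma adjusted p = 0.365), with striatal replicate 4 at 30.9 RPKM. Plagl1, a zinc finger growth suppressor, was at 10.4 ± 1.62 RPKM in knockout striatum and between 12.3 and 14.9 in 4 knockout hippocampal libraries, the other being unsure, and at 11.1 ± 2.43 in wild type striatum and 14.3 ± 1.41 in wild type hippocampus (-0.35 ± 0.12, limma adjusted p = 0.0353). The wild type call of Plagl1 was ended by 9 of 19 other settings.

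Mest, which encodes a hydrolase-like protein of the endoplasmic reticulum, was at 32.9 ± 2.62 RPKM in knockout striatum and 41.5 ± 3.15 in knockout hippocampus (-0.33 ± 0.08, limma adjusted p = 0.013). The wild type libraries held 29.8, 34.4, 37.7, 100.5 and 32.4 RPKM in striatum, against 42.8, 42.9, 44.4, 46.3 and 38.1 RPKM in hippocampus (-0.04 ± 0.27, limma adjusted p = 0.929). Apart from striatal replicate 4, at 100.5 RPKM, each wild type striatal library was below each hippocampal one. The knockout call of Mest was lost without codes 7_1 and 7_6 (limma adjusted p = 0.0653). Copg2, a coat protein gene whose end overlaps that of Mest on the other strand, did not pass, at 20.2 ± 0.936 RPKM in knockout striatum and 18.6 ± 1.02 in knockout hippocampus (adjusted p = 0.264), and at 21.1 ± 1.34 in wild type striatum and 20.6 ± 1.39 in wild type hippocampus (adjusted p = 0.661).

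Ddc, which encodes the decarboxylase that makes dopamine and serotonin and lies beside Grb10, was at 0.849 ± 0.23 RPKM in knockout striatum and 0.439 ± 0.154 in knockout hippocampus (0.36 ± 0.10, limma adjusted p = 0.0206). In wild type it was at 0.912 ± 0.292 in striatum and 0.404 ± 0.184 in hippocampus (0.44 ± 0.12, limma adjusted p = 0.0107). The knockout call of Ddc was lost without codes 7_1 and 7_6 (limma adjusted p = 0.0733). Genes of monoamine neurons summed to 7.35 to 11.4 RPKM in knockout striatum, against 6.67 to 7.83 in knockout hippocampus, and to 8.87 to 10.1 in wild type striatum, against 6.37 to 7.95 in wild type hippocampus. Of these 5 genes 1 reached 0.5 RPKM in knockout striatum and 2 in each other group. Their part in the level of Ddc was not tested. Ddc minus Grb10 was higher in striatum by 0.68 in knockout (two-sided exact permutation p = 0.00794, adjusted 0.0163) and by 0.62 in wild type (exact permutation p = 0.0159, adjusted 0.031).

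Nap1l5, a gene of the nucleosome assembly protein family within an intron of Herc3, was at 39.5 ± 11.9 RPKM in knockout striatum and 21.2 ± 1.95 in knockout hippocampus (0.82 ± 0.18, limma adjusted p = 0.00474), and at 32.6 ± 13.6 in wild type striatum and 21.5 ± 3.68 in wild type hippocampus (0.51 ± 0.22, adjusted p = 0.0757). Zrsr1, a splicing factor gene, was at 7.24 ± 1.11 RPKM in knockout striatum and 5.32 ± 0.488 in knockout hippocampus (0.38 ± 0.10, limma adjusted p = 0.0185), and at 6.78 ± 0.816 in wild type striatum and 5.81 ± 0.239 in wild type hippocampus (0.19 ± 0.07, adjusted p = 0.0497). That wild type call was ended by 14 of 19 other settings. The knockout call of Zrsr1 was kept under 15 of 19, and was lost without codes 7_1 and 7_6 (limma adjusted p = 0.0653).

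Several other genes did not pass in either genotype, or were under the filter. Gnas was at 137.2 ± 5.77 RPKM in knockout striatum and 148.8 ± 29.4 in knockout hippocampus (adjusted p = 0.596), and at 137.7 ± 13.9 in wild type striatum and 133.2 ± 5.95 in wild type hippocampus (adjusted p = 0.638). The non-coding RNA Peg13 was at 75.6 ± 7.5 RPKM in knockout striatum and 56.1 ± 15.7 in knockout hippocampus (adjusted p = 0.115), and at 73.2 ± 7.64 in wild type striatum and 68 ± 2.19 in wild type hippocampus (adjusted p = 0.262). Trappc9, a vesicle tethering gene that contains Peg13, lay between 6.61 and 8.12 RPKM over all 20 libraries, and the potassium channel gene Kcnk9 between 0.187 and 4.77. The lowest Kcnk9, Peg13, Igf2r and Peg10 values were all those of hippocampal knockout replicate 8, the library that stood apart by gene length. Their lengths are 1209, 4721, 8929 and 6667 bases, and in that library genes of 1 kb were shifted up and genes of 8 kb down. The low Kcnk9 thus went against the shift. Impact, which encodes an inhibitor of a kinase of the translation stress response, lay between 10.2 and 15.2 RPKM. Kcnq1ot1, the antisense RNA that silences the Cdkn1c domain, lay between 0.239 and 1.12 RPKM. In knockout all 5 of its striatal libraries were below all 5 hippocampal ones, as for 13.9% of all genes tested, and in wild type the tissues overlapped.

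Knockout was then compared with wild type in each tissue, to ask whether these genes change without Helios. In striatum, 0 of the 36 imprinted genes tested passed, as did 0% of 14880 genes (limma, smallest adjusted p among the 36 = 0.986). Ikzf2 itself, at 35.1% of its wild type mean, did not pass (-0.91 ± 0.11 on the log2 scale, limma adjusted p = 0.0908). A count of 0 therefore does not show that no gene changed. None of the 36 had an unadjusted p below 0.05 either, against 3.98% of all genes. There were 16 higher and 20 lower in knockout, with changes from -0.34 to 0.30 and a median of -0.005 on the log2 scale, against -0.0011 over all genes. Without codes 7_1 and 7_6 there were 9 higher and 27 lower, with a median of -0.08, and again none passed. Airn fell under the filter here, beside the 4 genes named above. The smallest p was that of Rian, at 199.0, 142.9, 149.0, 174.1 and 167.6 RPKM in knockout, against 142.0, 141.8, 178.8, 124.9 and 144.1 in wild type. These groups overlapped (0.19 ± 0.11 on the log2 scale, limma adjusted p = 0.986). Grb10 followed at -0.21 ± 0.16 and Cdkn1c at -0.30 ± 0.23 (limma adjusted p = 0.986 for both). In the authors' deposited table for striatum, 39 of the genes appeared with 51 transcripts. Of these transcripts 39 had a readable adjusted p in the authors' deposited table, 0 of them below 0.05 and the smallest 0.999.

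In hippocampus, as labelled, 0 of 34 passed, as did 0% of 14690 genes (limma, smallest adjusted p among the 34 = 0.719). At an unadjusted p below 0.05 there were 3 higher, against 2.61% of all genes, and 1 lower, against 1.93%. With 16 higher and 18 lower, the median change was -0.01 on the log2 scale, against -0.0075 over all genes. Ikzf2 did not pass here either, at -0.43 ± 0.16 (limma adjusted p = 0.719). It was at -0.65 without codes 7_1 and 7_6 (limma adjusted p = 0.696) and at -0.61 with their labels exchanged (adjusted p = 0.107). Not tested were the same 4 genes and Ddc, under the filter, and Ube3a and Plagl1, with their unsure values. The 3 higher were Mirg, Meg3 and Dio3, and the lower one was Asb4. Mirg was at 6.54, 5.31, 11.8, 6.05 and 5.33 RPKM in knockout, against 3.95, 4.76, 4.9, 3.84 and 4.27 RPKM in wild type. All 5 knockout libraries were above all 5 wild type libraries, as for 0.756% of all genes tested, and replicate 8 stood above the other 4. The change was 0.53 ± 0.18 on the log2 scale (limma adjusted p = 0.719). Without replicate 8 it was 0.35 ± 0.08 (adjusted p = 0.356), without codes 7_1 and 7_6 it was 0.54 ± 0.22 (adjusted p = 0.696), and with their labels exchanged it was 0.32 ± 0.22 (limma adjusted p = 0.722).

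Meg3, the first gene of the same maternal RNAs, was at 104.9 ± 19 RPKM in knockout and 78.9 ± 11.3 in wild type hippocampus (SD, n = 5 each), and the groups overlapped. Its change was 0.40 ± 0.14 on the log2 scale (limma adjusted p = 0.719), 0.33 without codes 7_1 and 7_6 (adjusted p = 0.696) and 0.13 with their labels exchanged (adjusted p = 0.756). Rian, between them, differed by 0.10 ± 0.13 (limma adjusted p = 0.755), by 0.22 ± 0.06 without replicate 8 (adjusted p = 0.415), by 0.05 without codes 7_1 and 7_6 (adjusted p = 0.885) and by -0.02 with the labels exchanged (adjusted p = 0.936). Asb4 was at 0.845 ± 0.201 RPKM in knockout and 1.19 ± 0.268 in wild type (-0.24 ± 0.11, limma adjusted p = 0.719), with -0.33 without codes 7_1 and 7_6 (adjusted p = 0.696) and -0.29 with the labels exchanged (adjusted p = 0.722). Dio3 was at 1.87 ± 0.387 RPKM in knockout and 1.14 ± 0.636 in wild type (0.48 ± 0.21, limma adjusted p = 0.719). Rian and Dio3 were picked for this paragraph after their values had been seen. The change of Dio3 was 0.26 without codes 7_1 and 7_6 (limma adjusted p = 0.696) and -0.06 with the labels exchanged (adjusted p = 0.915). In the authors' deposited table for hippocampus, 39 of the genes appeared with 53 transcripts. Of these, 42 in the authors' deposited table had a readable adjusted p, 0 below 0.05 and the smallest 0.867. Across 11592 genes, which are not independent replicates, the hippocampal changes in the authors' deposited table correlated with those found here at a Spearman rho of 0.765 as labelled and 0.852 with the 2 labels exchanged. For the transcript of Dio3 the authors' deposited table gives a change of 0.01, and for that of Rian -0.02. Transcripts of Meg3 are at 0.11 and 0.30 there. In striatum the authors' changes of these genes spanned only -0.191 to 0.159, against -0.34 to 0.30 here. Changes near 0 of single transcripts therefore do not decide between the labels. With the 2 labels exchanged, Ikzf2 in hippocampus was at 0.353 to 0.785 RPKM in knockout and at 1.32 to 1.61 in wild type, without overlap. The sources used here do not state which labels are right, and the labels were kept as given.

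**Figure D5:**
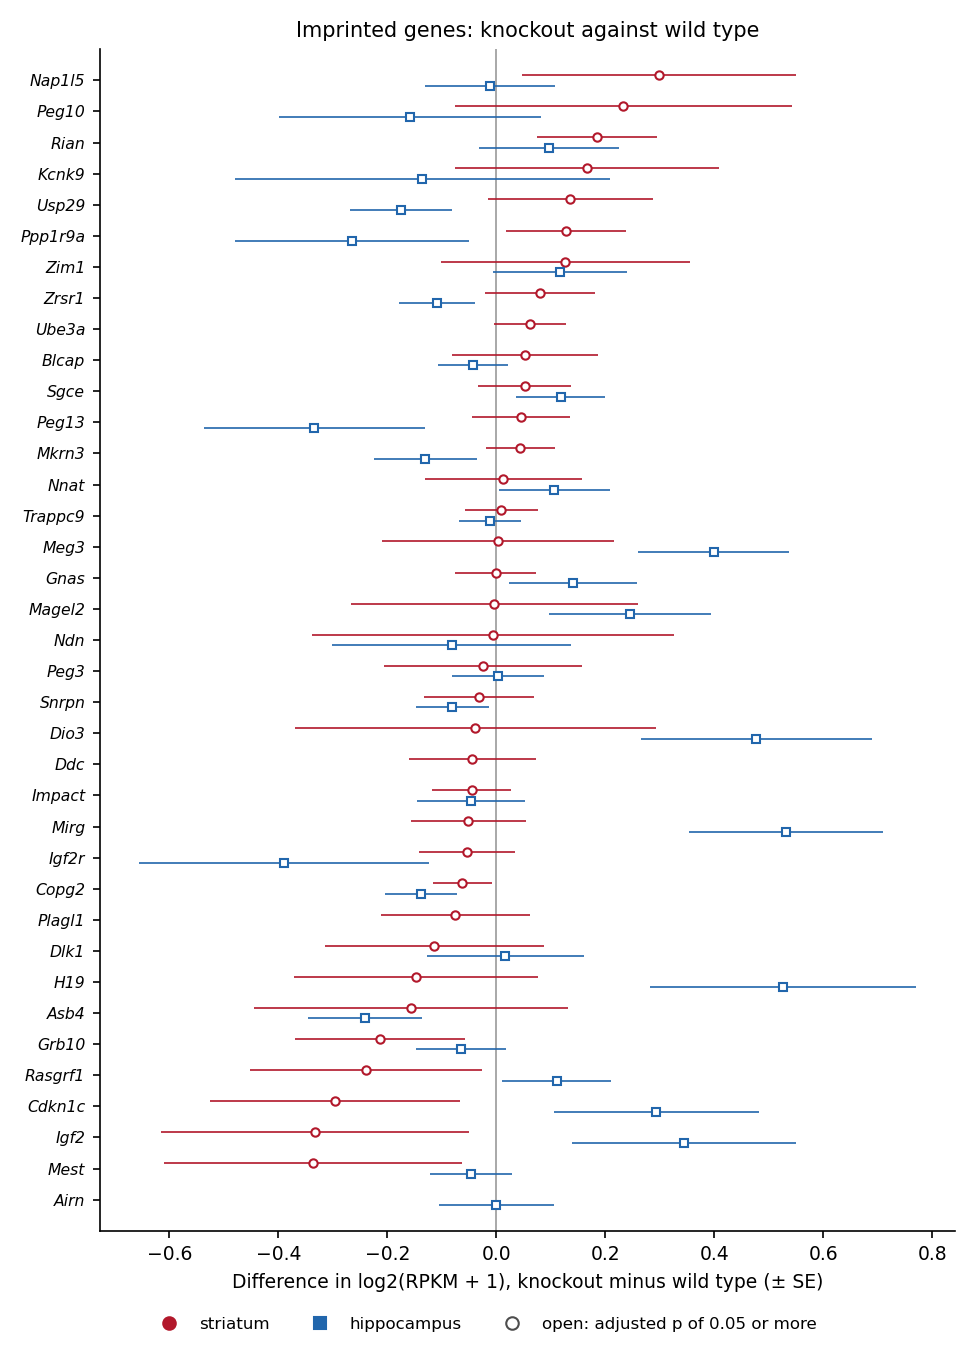
Difference in log2(RPKM + 1) between knockout and wild type of each tested imprinted gene, with its standard error (5 libraries per group, as labelled), in striatum and in hippocampus. Open points did not pass an adjusted p of 0.05, which holds for every gene shown. Changes in striatum lie between -0.34 and 0.30.

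The interaction asked whether the change with genotype differed between the tissues, and passed for 0 of 36 imprinted genes, as for 0% of 15154 genes (limma, smallest adjusted p = 0.806). At an unadjusted p below 0.05 there was 1 gene, lower in striatum relative to hippocampus, against 2.2% of all genes in that direction. This was Mirg, at -0.58 ± 0.22 on the log2 scale, followed by H19 at -0.67 ± 0.35 and Cdkn1c at -0.59 ± 0.31 (limma adjusted p = 0.806 for all 3). After an exchange of the 2 doubtful hippocampal labels, Mirg was at -0.38 ± 0.25, H19 at -0.43 ± 0.38 and Cdkn1c at -0.34 ± 0.33 (limma adjusted p = 0.788 for all 3). Without codes 7_1 and 7_6, Mirg was at -0.63 and H19 at -0.77 (limma adjusted p = 0.789 for both), and Cdkn1c at -0.26 (adjusted p = 0.803). Without hippocampal knockout replicate 8, Mirg was at -0.40 ± 0.14 (limma adjusted p = 0.999).

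Other imprinted genes and the genes that maintain imprints were looked at in the same fits. Of 42 further imprinted genes, 40 were in the table. In knockout 28 of them were tested, with 13 higher and 6 lower in striatum, and in wild type 29, with 12 higher and 6 lower. That is 67.9% called in knockout and 62.1% in wild type, against 28.6% and 43.9% of all genes. The list was chosen with earlier results of these data known, and whether its genes are imprinted in these tissues was not measured. The largest differences in knockout were Dcn, a proteoglycan of connective tissue that is also among the meningeal markers, at 0.422 ± 0.232 RPKM in striatum and 17.3 ± 2.11 in hippocampus (-3.69 on the log2 scale, limma adjusted p = 6.14e-09), and Cobl, an actin nucleator, at 14.6 ± 3.23 RPKM in striatum and 1.77 ± 0.369 in hippocampus (2.48, adjusted p = 3.68e-07). Dlx5, a transcription factor of striatal and interneuron precursors, was at 41.5 ± 8 RPKM in striatum and 7.11 ± 0.603 in hippocampus (2.37, limma adjusted p = 2.74e-07). Th, tyrosine hydroxylase, followed at 1.26 and Slc22a3, an organic cation transporter, at 1.13. In wild type the largest were Cobl at 2.56, Dlx5 at 2.43, Th at 1.71, Slc22a3 at 1.14 and Osbpl5, a lipid transfer protein gene, at -1.09 on the log2 scale (limma adjusted p between 2.83e-08 and 0.00337).

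Of 21 genes that set or keep imprints, 18 were tested in each genotype. In knockout 1 was higher and 1 lower in striatum, and in wild type 4 were higher and 1 lower, or 11.1% and 27.8% called, against the same 28.6% and 43.9% of all genes. Dnmt3a, a de novo DNA methyltransferase, was at 33.7 ± 4.52 RPKM in knockout striatum and 17.8 ± 5.23 in knockout hippocampus (0.94 ± 0.21 on the log2 scale, limma adjusted p = 0.00684), and at 32.4 ± 3.67 in wild type striatum and 20.3 ± 0.533 in wild type hippocampus (0.64 ± 0.07, adjusted p = 2.52e-05). Dnmt3b, its relative, was lower, at 0.826 ± 0.124 RPKM in knockout striatum and 1.28 ± 0.105 in knockout hippocampus (limma adjusted p = 0.00446) and at 0.853 ± 0.0768 in wild type striatum and 1.22 ± 0.171 in wild type hippocampus (adjusted p = 0.0101). In wild type Tet2 (0.40), Ehmt2 (0.24) and Tet3 (0.17 on the log2 scale) were higher in striatum (limma adjusted p between 0.00492 and 0.047). Tet2 and Tet3 oxidise methylated cytosine, and Ehmt2 methylates histones. Between genotypes, 0 genes of either list passed in striatum, in hippocampus or in the interaction.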

How the data were processed

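RNA sequencing of 20 libraries, 4 groups of 5, was used. The TruSeq mRNA stranded kit was used, per the labels' protocols, and libraries were sequenced as single reads on a NextSeq500. The submitters' processing notes name BWA 0.7.4, cutadapt 1.3, featureCounts, HTSeq, DESeq2, SAMtools, FastQC 0.11, bcl2fastq 2.15.0 and CASAVA 1.8.2 and the build mm10, with no order. The deposited gene table holds RPKM per library. The deposited tables of the authors' own comparisons hold log2 fold changes with standard errors, p-values and adjusted p-values per transcript. Values of the authors' tables that had lost their decimal mark were not used.

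In 51.1% of the deposited RPKM values the decimal mark was missing. It was restored from the rule that each value stands for a whole number of reads, within a tolerance of 0.0001. This covered 27175 genes, and 4 genes were left out. Where several places of the mark gave whole reads, the place nearest the gene's centre in that tissue was taken. That centre was the median over libraries of both genotypes, adjusted for each library's trend with gene length. A restored value can thus be drawn towards the centre of its tissue. Recovered reads were 0.9480 to 1.3528 of the library size behind the RPKM. Genes with an unsure mark were left out of a comparison, 155 in striatum and 458 in hippocampus. Read totals per library are those recovered this way, and differences smaller than the spread of 5 libraries cannot be shown at this depth.

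Groups were compared with limma 3.58.1 in R 4.3.3 (moderated, with trend and robust settings) on log2(RPKM + 1), over all genes at 0.5 RPKM or more in at least 5 libraries, with Benjamini-Hochberg adjustment over all genes tested and a threshold of 0.05. A gene at 0.5 RPKM or more in the 5 libraries of 1 group alone passed this filter. Fold changes on this scale understate the change of low genes. Differences between neighbouring genes were tested with a two-sided exact permutation test (SciPy 1.17.1), run also on all tested genes next to each other by RefSeq position, a comparison added after seeing the data. The restoring step and the fits were tested on simulated data. Within groups, 40 pairs of libraries were compared for duplicates, and the smallest chi-square per degree of freedom was 12.9.

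The members and all lists were chosen with earlier results of these data known. All 41 members are described, the 3 with the smallest p are named in comparisons of genotypes, and the 5 called genes with the largest change are named from the other lists. The number of sample columns left unused was 0. Alternatives were another pseudocount, other filters, quantile normalization, voom on recovered reads, unsure marks kept, the replicate block, each library left out, and codes 7_1 and 7_6 left out or exchanged.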

Additional observations from a re-analysis of the deposited data

Results flagged for a closer look

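In 22 of 143 sets of 5 libraries, each set being 1 imprinted gene in 1 group with a mean of at least 0.5 RPKM, the highest or lowest library stood apart from the other 4 by more than 0.71 of the whole range. In independent sets drawn from a normal distribution this would happen in about 1 in 20. The sets here share the same 20 libraries, and the rate over all genes was not computed. The count therefore cannot be read as particular to imprinted genes. The 22 fell on 19 genes, and 10 of them on hippocampal knockout replicate 8, 5 on wild type replicate 3 of striatum and 4 on wild type replicate 4 of striatum.

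In hippocampal knockout replicate 8 the high values were Mirg at 11.8 RPKM, Dlk1 at 3.05, H19 at 71.8, Nnat at 1442.3 and Gnas at 199.7. The low values there were Peg10 at 3.23 RPKM, Ppp1r9a at 9.52, Peg13 at 28.6, Igf2r at 2.07 and Impact at 10.2. This is the library whose values were shifted by gene length, up for genes of 1 kb and down for genes of 8 kb. The lengths of the high genes are 1300, 4811, 2615, 1213 and 6061 bases, in the order above. Those of the low genes are 6667, 9547, 4721, 8929 and 3432 bases. The part of the shift in these values was not tested.

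In wild type replicate 3 of striatum the high values were Peg3 at 30.9 RPKM, Zim1 at 5.37, Nap1l5 at 56.1, Nnat at 2349.0 and Blcap at 99.9. In wild type replicate 4 of striatum they were Igf2 at 61.1 RPKM, Mest at 100.5, Grb10 at 30.9 and Rasgrf1 at 9.07. Each of the others was alone in its library. Peg10 was high in knockout replicate 6 of striatum, at 59.1 RPKM, Kcnq1ot1 in hippocampal knockout replicate 7, at 1.12 RPKM, and Impact in hippocampal wild type replicate 2, at 15.1 RPKM.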

How the results depend on the processing

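Over the settings run, none of the differences named by the rule and none of the neighbour differences past the threshold changed sign. With the labels of the 2 doubtful hippocampal codes exchanged, the genotype changes of Rian and Dio3 in hippocampus, which did not pass, turned to -0.02 and -0.06, against 0.10 and 0.48 as reported. Leaving out 1 library in turn gave 3258 to 6283 genes and 17 to 22 imprinted genes for striatum against hippocampus in knockout, and 5481 to 8046 genes and 14 to 21 imprinted genes in wild type. The comparisons of genotypes and the interaction stayed between 0 and 0 genes under it. Without codes 7_1 and 7_6 the knockout comparison of tissues passed for 2630 genes and 13 imprinted genes. Knockout against wild type in striatum passed for 1 gene under voom with read totals, under voom with the library sizes of the RPKM and with unsure marks kept, against 0 as reported, and the cause was not tested. Under voom with read totals 39.7% of the wild type calls between tissues were higher in striatum, against 47.4% as reported. Named genes lost their call 33 times in knockout, in 12 genes, and 58 times in wild type, in 8 genes, over all settings, and the genotype difference of Ikzf2 in striatum passed under 2 settings.

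The replicate block, on the 4 numbers that both tissues share, gave 1956 genes and 9 imprinted genes in knockout and 4589 and 16 in wild type. Of the calls of imprinted genes it ended 10 in knockout, those of Nnat, Blcap, Snrpn, Usp29, Cdkn1c, Mest, Ddc, Grb10, Zrsr1 and Ppp1r9a, and 3 in wild type, those of Peg3, Plagl1 and Zrsr1. Same-numbered libraries share a code, and the labels do not say whether they share an animal. They were not taken as pairs, since correlations of their deviations did not all exceed 0.1, at 0.0489, -0.184, 0.215 and 0.0527 in knockout and 0.118, 0.106, 0.0201 and 0.147 in wild type. As a hint from the data, 3 of 4 wild type libraries and 1 of 4 knockout libraries correlated best with their own number, and Ndn was high in the same codes in both tissues. Of the 22 neighbour differences past the threshold all passed with a pseudocount of 0.1, and leaving out 1 library kept 194 and lost 26. Without codes 7_1 and 7_6 none of the 22 passed, where the smallest p possible is 0.0286 (exact permutation test), with adjusted p from 0.0506 to 0.134 and no change of sign. Genes under the filter of 0.5 RPKM were left out of the tests whatever their reads, which were 532 to 1883 per library for Kcnq1ot1 and 0 to 5 for Phlda2.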
